A study of Rattus norvegicus with 8 samples.

Results

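The miR-17-92 cluster is a row of 6 microRNA hairpins cut from 1 primary transcript, and this account follows 7 of its mature microRNAs (miRNAs) in the rat kidney. They were chosen by name, as the probes whose annotated miRNA was rno-miR-17-5p, miR-18a-5p, miR-19a-3p, miR-20a-5p, miR-20a-3p, miR-19b-3p or miR-92a-3p. These are 7 of the 758 miRNAs on the array. The 8 arrays came from right kidneys of male rats of the inbred F344/NSlc strain, aged 10 weeks. By the labels, 4 are replicates of nephrectomized rats, which had lost the other kidney, and 4 of sham-operated rats. The labels place the nephrectomized kidneys at day 2 after surgery and the sham kidneys at day 1, whereas the design text names 2 days, so surgery and time cannot be told apart if the labels are right. Whole kidney was measured, which mixes tubule, vessel, stroma and blood, so fewer cells of a type and less RNA per cell cannot be told apart.

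A miRNA guides silencing proteins to messenger RNAs that pair with its seed, the bases 2 to 8 from its 5′ end, and lowers their output. The miR-17-92 transcript is known from lymphoma and other cancers as a target of MYC and E2F that favours proliferation and survival, and in mice its loss from nephron progenitors impairs kidney development. A kidney left alone after nephrectomy enlarges, and the comparison asks whether this growth-linked cluster differs in it.

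The mature sequences are shown because their likeness decides what the probes can tell apart. They were matched by name to RefSeq for all 7 miRNAs (build GRCr8) and are written 5′ to 3′ in hairpin order, with the seed in capitals.
rno-miR-17-5p: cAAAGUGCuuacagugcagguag
rno-miR-18a-5p: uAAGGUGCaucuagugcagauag
rno-miR-19a-3p: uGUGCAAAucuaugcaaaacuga
rno-miR-20a-5p: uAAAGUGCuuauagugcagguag
rno-miR-20a-3p: aCUGCAUUacgagcacuuaca
rno-miR-19b-3p: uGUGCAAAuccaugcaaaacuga
rno-miR-92a-3p: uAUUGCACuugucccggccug

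These 7 miRNAs carry 5 seeds. miR-17-5p and miR-20a-5p share AAAGUGC, miR-19a-3p and miR-19b-3p share GUGCAAA, and the other 3 have a seed each. miR-17-5p and miR-20a-5p are known to silence cell cycle inhibitors such as p21 and the pro-death gene Bim. miR-19a-3p and miR-19b-3p carry much of the cluster's transforming activity in mouse lymphoma. miR-92a-3p is known from endothelium as a restraint on vessel growth, and miR-18a-5p as a repressor of connective tissue growth factor. miR-20a-3p is the passenger arm of the miR-20a hairpin, the strand that is mostly discarded.

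In RefSeq the 6 hairpins lie on the plus strand of chr15:98587848-98588632, a stretch of 785 bases, in the order Mir17, Mir18a, Mir19a, Mir20a, Mir19b1 and Mir92a1, with 35 to 90 bases between neighbours. The mature sequence of 3 members has a second source. miR-17-5p is also made by Mir106a, miR-19b-3p by Mir19b2 and miR-92a-3p by Mir92a2, all in the related cluster on the X chromosome. An array value for these 3 therefore sums both loci, and miR-18a, miR-19a and miR-20a are the ones annotated to chromosome 15 alone. The array files map probes to the older build rn4 and annotate no exon or intron. In those coordinates, some of which span 1 base less than the probe, the longest probes of the chromosome 15 miRNAs run from chr15:99853892-99853909 (miR-18a-5p) to chr15:99854493-99854509 (miR-92a-3p), and that of miR-17-5p is given at chrX:139741462-139741476 alone.

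Detection split the cluster. miR-17-5p, miR-19a-3p, miR-20a-5p, miR-19b-3p and miR-92a-3p were detected on all 8 arrays by the scanner software's call. miR-18a-5p was detected on 1 of 4 nephrectomized and 2 of 4 sham arrays, and miR-20a-3p on 0 of 4 nephrectomized and 1 of 4 sham arrays. Of all 758 miRNAs, 28.2% were detected on all 8 arrays. Over the 64 spots of a miRNA in a group, miR-20a-5p, miR-19b-3p and miR-92a-3p were well above background on 64 in either group. miR-17-5p reached this on 56 spots in nephrectomized and 64 in sham kidneys, and miR-19a-3p on 42 and 58. miR-18a-5p had 1 such spot in each group, and miR-20a-3p none.

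**Figure D1:**
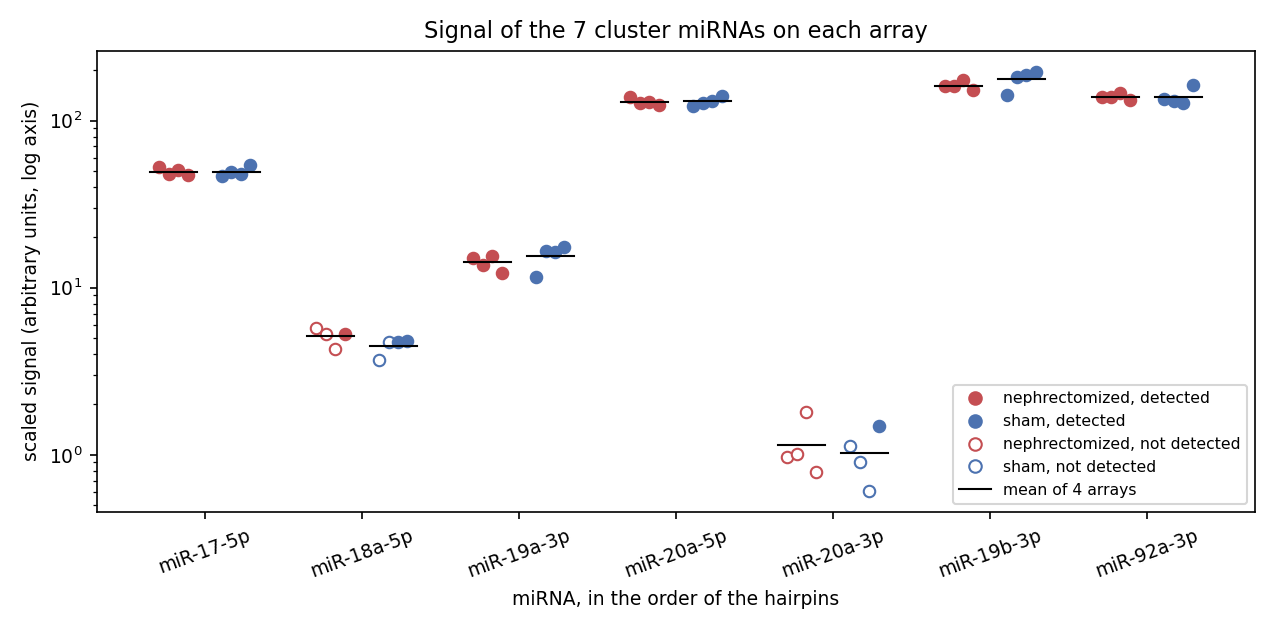
Scaled signal (arbitrary units, log axis) of the 7 cluster miRNAs in hairpin order, 1 point per array, nephrectomized left of sham, with open points where the miRNA was not detected and a line at the mean of 4 arrays. The 5 miRNAs detected on all arrays lie above 11.6, miR-18a-5p lies between 3.70 and 5.75, and miR-20a-3p lies between 0.609 and 1.79.

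Signal was scaled between arrays and is given in arbitrary units. Levels of different miRNAs are not comparable as amounts, because probes differ in their response: on the same nephrectomized arrays miR-17-5p gave a mean of 85.0 with its probe of 16 bases and 14.0 with one a single base shorter. The uneven signals along the cluster, from miR-20a-3p near background to miR-19b-3p, are given here as measured and not as a ratio of molecules.

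rno-miR-17-5p, the first of the cluster, had signals of 52.7, 47.7, 50.7 and 46.9 in nephrectomized replicates 1 to 4, against 46.5, 49.6, 47.8 and 53.9 in sham replicates 1 to 4. The groups overlapped fully. Their log2 levels were 5.63 ± 0.078 and 5.63 ± 0.093 (SD, n = 4 each), a log2 difference (nephrectomized minus sham) of +0.0026 ± 0.060 (SE), or 1.00-fold with a 95% interval of 0.910 to 1.10. In limma, fitted over the 238 miRNAs detected on at least 4 arrays, the adjusted p was 0.983. The probes of this miRNA did not give the same sign: the log2 difference was +0.040 with the probe of 16 bases and -0.21 with that of 15.

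rno-miR-20a-5p, with the same seed, had 138.5, 127.2, 130.0 and 123.7 in nephrectomized kidneys, against 121.6, 128.0, 130.2 and 141.2 in sham kidneys. The groups overlapped again. The log2 difference was -0.0036 ± 0.057 (SE), 0.997-fold with an interval of 0.911 to 1.09 (limma adjusted p = 0.975).

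rno-miR-92a-3p, from the last hairpin, had 138.9, 137.9, 146.5 and 133.3 in nephrectomized kidneys, against 133.9, 131.5, 127.6 and 164.3 in sham kidneys. Sham replicate 4 was the highest array, sham replicate 1 lay within the nephrectomized range, and the other 2 sham arrays lay below it. The log2 difference was +0.0049 ± 0.081 (SE), 1.00-fold with an interval of 0.881 to 1.14 (limma adjusted p = 0.975).

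rno-miR-19b-3p had 161.0, 160.5, 173.8 and 153.2 in nephrectomized kidneys, against 142.2, 182.7, 187.2 and 196.1 in sham kidneys. Sham replicate 1 was the lowest of all 8 arrays and the other 3 sham arrays were the highest. The log2 levels were 7.34 ± 0.076 and 7.46 ± 0.21 (SD, n = 4 each), a difference of -0.12 ± 0.10 (SE), 0.922-fold with an interval of 0.785 to 1.08 (limma adjusted p = 0.532). Without sham replicate 1 the difference was -0.22, and without sham replicate 4 it was -0.065. Neither passed the test.

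rno-miR-19a-3p followed the same pattern at a dimmer signal, with 15.1, 13.6, 15.5 and 12.3 in nephrectomized kidneys, against 11.6, 16.6, 16.4 and 17.5 in sham kidneys. Sham replicate 1 was again the lowest array and the other 3 sham arrays the highest. The log2 difference was -0.12 ± 0.14 (SE), 0.919-fold with an interval of 0.736 to 1.15 (limma adjusted p = 0.640). Without sham replicate 1 it was -0.25, and it was -0.056 without sham replicate 4 and without nephrectomized replicate 4. It turned to +0.14 with normexp background correction, where limma called it higher (adjusted p = 0.00856) and the median difference of all tested miRNAs was +0.13.

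The probes of both miR-19 miRNAs are nearly the same. The mature miRNAs differ by U11C (from miR-19a-3p to miR-19b-3p, counted from the 5′ end), and their probes of 20 bases differ at 1 position, in capitals below and again counted from the 5′ end (A13G from the first to the second).
miR-19a-3p probe: tcagttttgcatAgatttgc
miR-19b-3p probe: tcagttttgcatGgatttgc
The signal of miR-19a-3p can therefore hold signal of miR-19b-3p, and the reverse; that part was not tested. The longest probes of miR-17-5p and miR-20a-5p are likewise 1 mismatch from the other miRNA, and those miRNAs differ by C1U and C12U. The longest probe of miR-92a-3p is 2 mismatches from miR-25-3p and miR-92b-3p, while those of miR-18a-5p and miR-20a-3p are at least 3 and 6 mismatches from any of the other RefSeq miRNAs compared.

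The 2 miRNAs with little detection had too few detected arrays to be tested. rno-miR-18a-5p had signals of 5.75, 5.28, 4.29 and 5.29 in nephrectomized kidneys, against 3.70, 4.76, 4.70 and 4.78 in sham kidneys. These overlapped, and the log2 difference was +0.20, with the groups at 2.36 ± 0.18 and 2.16 ± 0.18 (SD, n = 4 each). Detection did not follow the scaled signal closely: the array with the highest value, nephrectomized replicate 1, was not called detected. Before scaling, nephrectomized replicate 1 had 5.39, below sham replicate 3 (5.70, detected) and slightly above sham replicate 4 (5.30, detected). rno-miR-20a-3p had 0.968, 1.02, 1.79 and 0.787 in nephrectomized kidneys, against 1.13, 0.904, 0.609 and 1.48 in sham kidneys. These values average probes of 20, 19, 18 and 17 bases. The probe of 20 bases gave a mean of 4.95 ± 0.846 in nephrectomized and 4.58 ± 1.01 in sham kidneys (SD, n = 4 each). The shorter probes gave group means from -0.781 to 0.860, which lowers the average. miR-20a-3p was detected on sham replicate 4 alone, and no fold is read from values this near background. The log2 difference of the averaged values of miR-20a-3p, +0.15, serves only to compare settings. On the arrays its guide strand miR-20a-5p was well above background on every spot.

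Each miRNA was read by probes of different length. The shorter ones are cut-down forms of the longest, read on the same arrays from the same RNA, so agreement between them is no separate check. For miR-19b-3p the probe of 20 bases gave a mean of 231 ± 12.4 in nephrectomized and 249 ± 34.3 in sham kidneys, and that of 19 bases 93.4 ± 4.80 and 105 ± 13.8 (SD, n = 4 each). Their log2 differences were -0.10 and -0.16, and those of the miR-19a-3p probes were -0.14 (21 bases) and -0.10 (20 bases). Both miR-19 miRNAs had a difference below 0 on each of their probes with the reported scaling. The probes of miR-20a-5p gave +0.0018 and -0.013 and those of miR-92a-3p +0.013 and -0.020, on either side of 0 as for miR-17-5p. The probes of the poorly detected miR-18a-5p gave +0.17 and +0.26. Among spots of a probe on an array, a technical spread, the median coefficient of variation was 4.40% and 5.89% for the probes of miR-20a-5p, 5.42% and 13.4% for those of miR-17-5p, 11.6% and 11.7% for those of miR-19a-3p, and 25.4% and 45.6% for those of miR-18a-5p (longer probe first).

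Of the 5 tested cluster miRNAs, 0 passed the limma test at an adjusted p of 0.05, against 0 of 238 (0%) among all tested miRNAs. At an unadjusted limma p under 0.05 the cluster had 0 of 5, against 20.2% of all tested (15.5% higher and 4.62% lower). The groups did not overlap for 0 of 5 cluster miRNAs, against 14.7% of all. The median log2 difference was -0.0036 in the cluster and -0.0077 over all tested miRNAs. Of the cluster, 3 of 5 had a difference below 0 (52.5% of all tested) and 2 of 5 one above 0 (47.5%). The split of the unadjusted calls over all miRNAs, 37 higher and 11 lower, depended on the scaling and on the background correction: unscaled signal gave 1 and 172, the 75th percentile over all miRNAs 20 and 88, the median 31 and 23, quantile normalization 37 and 22, labelling spike-ins 32 and 1, and normexp background correction 140 and 21.

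**Figure D2:**
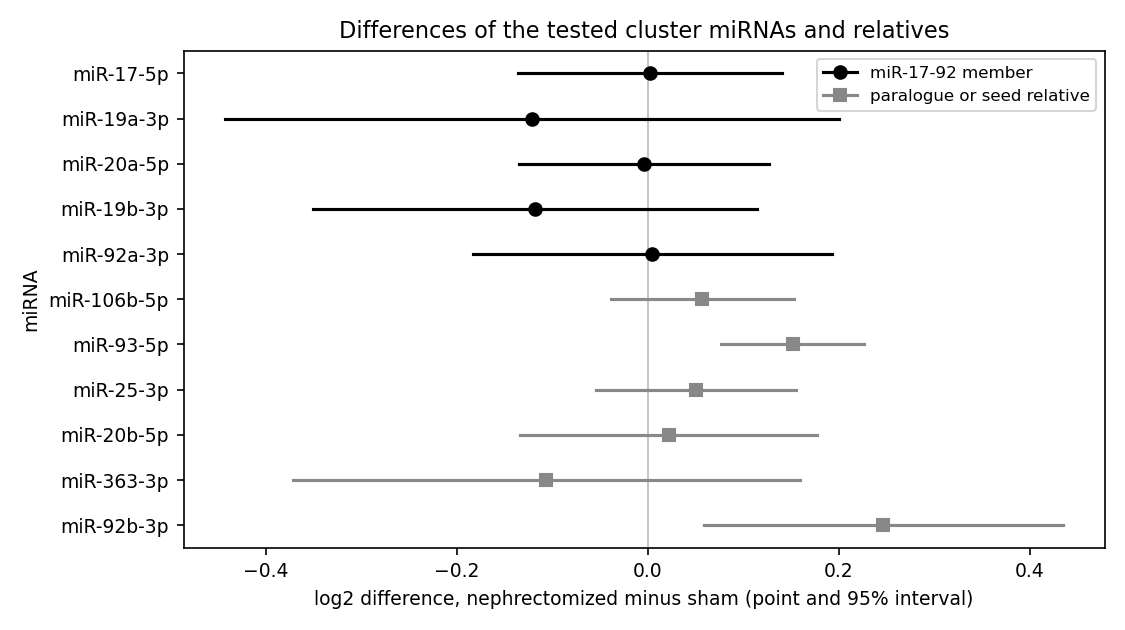
Log2 difference (nephrectomized minus sham) with its 95% interval for the 5 tested cluster miRNAs (circles) and 6 tested paralogues or seed relatives (squares). The intervals of all 5 cluster miRNAs span 0, with miR-17-5p at +0.0026 and miR-19a-3p at -0.12, while those of miR-93-5p (+0.15) and miR-92b-3p (+0.25) lie above 0 without an adjusted p under the threshold.

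Ratios of cluster miRNAs on the same array do not depend on the scaling of whole arrays. For 10 pairs of the 5 tested miRNAs, the groups overlapped in all 10, against 15.4% of all 28203 pairs of tested miRNAs whose groups did not overlap. The ratio of miR-17-5p to miR-20a-5p was the steadiest, at a log2 of -1.39 ± 0.024 in nephrectomized and -1.40 ± 0.034 in sham kidneys (SD, n = 4 each). Its pooled within-group SD of 0.029 lay under the 5th percentile (0.0358) of pairs of miRNAs at least as bright as miR-17-5p, whose median was 0.0801. The longest probe of each is 1 mismatch from the other miRNA. The ratio of miR-19b-3p to miR-92a-3p, neighbours at the end of the cluster, was 0.213, 0.219, 0.247 and 0.200 in nephrectomized replicates 1 to 4, against 0.087, 0.475, 0.552 and 0.255 in sham replicates 1 to 4. The nephrectomized values lay inside the sham range, with an SD of 0.020 against 0.21. The ratio of miR-20a-5p to miR-19b-3p was -0.32 ± 0.083 in nephrectomized and -0.43 ± 0.14 in sham kidneys, a log2 difference of +0.11.

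**Figure D3:**
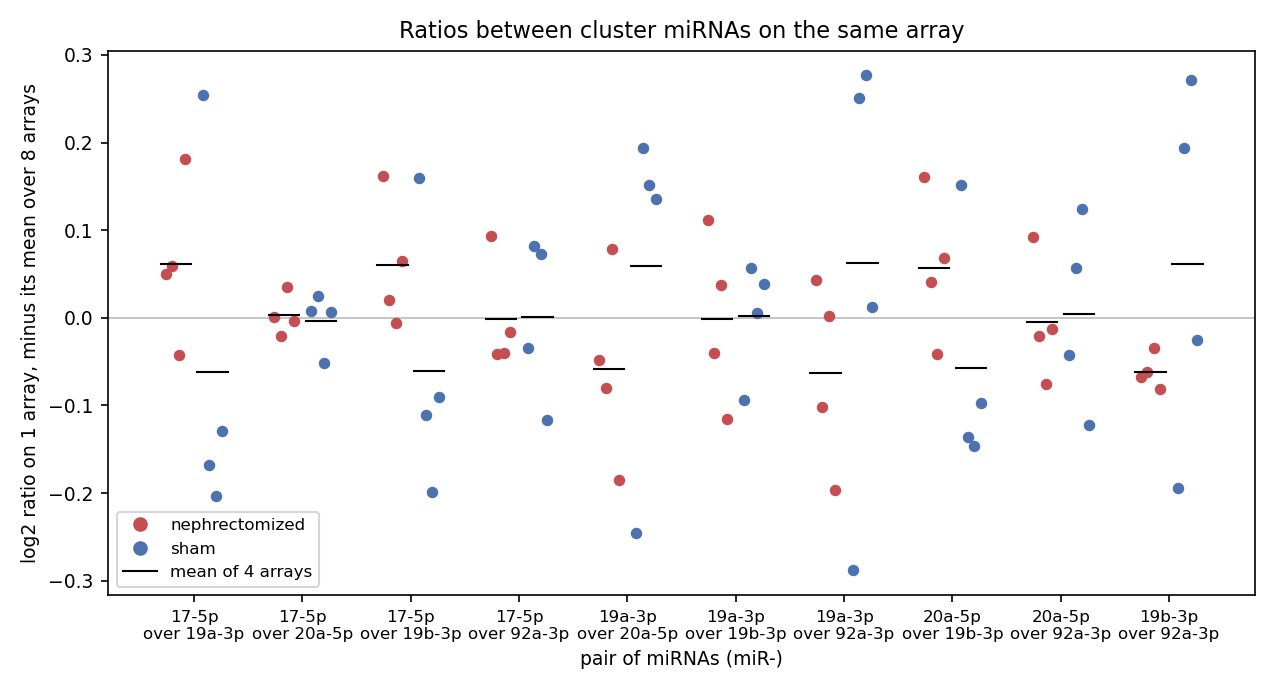
Log2 ratio of 2 cluster miRNAs on the same array, minus the mean of that ratio over 8 arrays, for all 10 pairs of the 5 tested miRNAs, with 4 nephrectomized points left of 4 sham points and a line at each mean. Points of miR-17-5p over miR-20a-5p lie closest to 0, and in every pair the groups overlap.

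The mean level of the cluster differed between kidneys of the same group. Averaged over the 5 tested miRNAs, the log2 level relative to the mean of 8 arrays was +0.033, -0.055, +0.048 and -0.12 in nephrectomized replicates 1 to 4, against -0.16, +0.038, +0.028 and +0.19 in sham replicates 1 to 4. The lowest and the highest array were both sham.

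Outside the cluster, the miRNA with the profile over 8 arrays most like this mean was miR-34a-5p, a p53-induced miRNA, at a root mean square distance of 0.0543 on the log2 scale. miR-101b-3p (0.0561), miR-20b-5p (0.0577), miR-203b-3p (0.0596) and miR-365-3p (0.0674) followed. The median over all tested miRNAs was 0.138. miR-20a-5p and miR-17-5p, at 0.0535 and 0.0540, are part of the mean they were set against, and miR-20b-5p has probes near-identical to theirs.

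The other arms listed with the cluster were not called detected. Of 6 on the array, miR-17-1-3p, miR-17-2-3p, miR-18a-3p, miR-19a-5p, miR-19b-1-5p and miR-92a-1-5p, 0 were detected on any array, and 4 were at or below 0 on all 8. Of all 758 miRNAs, 494 were detected on no array, and 310 were at or below 0 on all 8. miR-18a-3p lay above 0 on all 8, with 1.30 ± 0.519 in nephrectomized and 1.07 ± 0.178 in sham kidneys (SD, n = 4 each), and miR-17-2-3p had 1 spot well above background on nephrectomized replicate 2. RefSeq places miR-17-2-3p in Mir106a on the X chromosome, so it is no arm of the chromosome 15 hairpins.

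Relatives of the cluster were taken from a list of 17 paralogues and seed relatives, of which 15 are on the array, 6 were tested and 9 were detected on no array. Of the 6 tested, 0 passed limma, 2 had an unadjusted p under 0.05 and a difference above 0 (15.5% of all tested), and the median log2 difference was +0.054; all 6 stood below 0 without scaling. miR-93-5p, which shares the seed of miR-17-5p, had 87.4, 86.7, 90.6 and 88.8 in nephrectomized kidneys, against 78.3, 79.3, 79.0 and 81.5 in sham kidneys. The groups did not overlap, which held for 1 of the 6 tested relatives and for 14.7% of all tested miRNAs. The difference was +0.15 ± 0.032 (SE, limma adjusted p = 0.0760), and it stood at -0.13 without scaling. With normexp it was again +0.15 and passed (adjusted p = 0.00304), as it did with total gene signal. miR-92b-3p, which shares the seed of miR-92a-3p, differed by +0.25 ± 0.081 (limma adjusted p = 0.132), and by +0.22 with normexp, where it passed (adjusted p = 0.00304). The difference was +0.057 ± 0.041 for miR-106b-5p and +0.051 ± 0.045 for miR-25-3p, which share a transcript with miR-93-5p. Without scaling these stood at -0.22 and -0.23 and passed limma as lower (adjusted p = 0.0452 and 0.0252). miR-20b-5p and miR-363-3p, from the X-linked cluster that also encodes 3 of the sequences above, differed by +0.022 ± 0.067 and -0.11 ± 0.11, with 4 of 4 arrays detected in both groups. miR-363-3p turned to +0.17 with normexp, where it passed as higher (adjusted p = 0.00318), and it passed as lower without scaling (-0.39).

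The tissue label was checked against cell type markers. All 5 tubule miRNAs were detected on all 8 arrays, with a summed signal of 5660 to 5961 in nephrectomized and 5889 to 6044 in sham kidneys. Of these, 2 had a difference above 0 and 3 one below, from -0.13 (miR-204-5p) to +0.088 (miR-192-5p). The groups did not overlap for 2 of 5, against 14.7% of all tested, and 0 passed. miR-192-5p turned to -0.19 without scaling and miR-204-5p to +0.039 with normexp. Each of these passed limma under 1 alternative, as did miR-194-5p, while miR-10a-5p passed under 2 and miR-30a-5p under 3. The liver miRNA miR-122-5p and the 3 striated muscle miRNAs were detected on no array. Leukocyte miRNAs, of interest because lymphoid cells express this cluster, were tested for 5 of 6. The summed signal of all 6 was 617.4 to 675.3 in nephrectomized and 667.6 to 716.2 in sham kidneys. The median log2 difference of the 5 tested was -0.085, with 4 below 0 and miR-223-3p at +0.031, and 0 of them passed. The groups did not overlap for 1 of 5 (miR-150-5p), against 14.7% of all tested. miR-155-5p differed by -0.16, and by +0.14 with normexp. Under alternatives, miR-155-5p and miR-146a-5p each passed 3 times, and miR-223-3p, miR-142-3p and miR-150-5p 1 time each. The red blood cell miRNA miR-451-5p ranged from 44.8 to 110.7 in nephrectomized and from 41.9 to 90.6 in sham kidneys, and the other 2 of that list were detected on at most 1 array. The 2 endothelial miRNAs, both from miR-126a, summed to 1136 to 1205 in nephrectomized and 1203 to 1286 in sham kidneys. The difference was -0.072 for miR-126a-3p, which turned to +0.0060 with labelling spike-ins, and -0.11 for miR-126a-5p, which turned to +0.026 with normexp. Without scaling they stood at -0.35 and -0.39, and each passed limma under 2 alternatives. Of the neuron miRNAs, miR-124-3p was detected on no array and miR-9a-5p on all 8, with a difference of -0.24 ± 0.17 that turned to +0.16 with normexp, where it passed as higher (adjusted p = 0.00481), and was -0.52 without scaling, where it passed as lower. The part of these cells in the cluster's values was not tested.

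The nephrectomized arrays were dimmer, which bears on every signed difference given here. Their 75th percentile of signal before scaling was 155.4 to 180.0, against 190.4 to 226.8 on sham arrays, and they detected 224 to 230 miRNAs, against 242 to 253. Labelling spike-ins, synthetic RNAs added before labelling, averaged 10.20 ± 0.18 on nephrectomized and 10.56 ± 0.036 on sham arrays on the log2 scale (SD, n = 4 each). All 8 arrays lay on 1 slide and in 1 scan, and the position codes put the nephrectomized arrays in one block of 4 and the sham arrays in the other, so position and group cannot be told apart. Without scaling, the median log2 difference of all tested miRNAs was -0.29, and miR-17-5p, miR-20a-5p and miR-92a-3p stood at -0.28, -0.29 and -0.28. They were within 0.013 of that median, and miR-19a-3p and miR-19b-3p stood at -0.40 each, 0.11 below it. Scaling of whole arrays moves every miRNA and the median alike. These distances are therefore the same with the reported scaling by construction, which is no separate check.

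**Figure D4:**
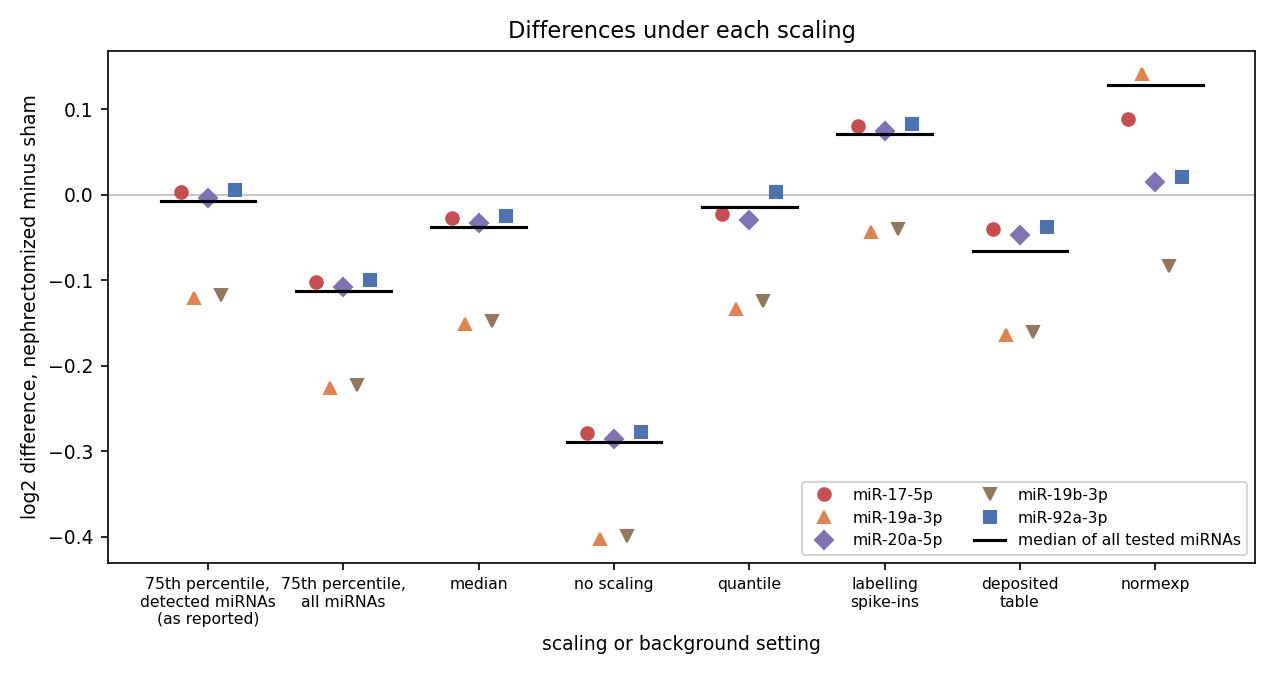
Log2 difference (nephrectomized minus sham) of the 5 tested cluster miRNAs under 6 scalings, in the deposited value table and with normexp background correction, with a line at the median of all tested miRNAs. miR-17-5p, miR-20a-5p and miR-92a-3p lie within 0.028 of the line except with normexp, from -0.29 without scaling to +0.070 (the median) with the labelling spike-ins. miR-19a-3p and miR-19b-3p lie below the line in every setting drawn except miR-19a-3p with normexp. Scalings that move a whole array alike keep the distances from the line by construction. Only quantile normalization, the deposited table and normexp could change them.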

How the data were processed

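The members and lists were chosen with earlier results of these data known. The deposited scanner tables hold intensity on a linear scale, which per the file headers came from the scanner software Agilent Feature Extraction (12.0.3.1) with spatial detrending on and local background correction off. Other deposited columns are flags of 0 or 1 for detection, outliers and saturation. The deposited value table holds log2 values; set against the scanner values, it is the log2 total signal centred per miRNA, with medians per array from -0.25 to 0.17 and an unknown rule for the shift per array.

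Control and outlier spots (8.10% to 9.01% per array) were left out; no spot was saturated. Spots were averaged per probe, then probes per miRNA. Scaling used, on each array, the 75th percentile of the 214 miRNAs with detection on every array; values were floored at 0.121 and logged. The 238 miRNAs detected on at least 4 arrays were fitted with limma 3.58.1 in R 4.3.3, by group alone, two-sided, with Benjamini-Hochberg adjustment over all 238. The fit was tested on simulated data. The number of arrays limits precision, and nothing beyond the labels says that the 8 samples were separate animals. The p-values therefore set the group difference against the spread between these samples only. Named miRNAs were the cluster, its other arms and paralogues, cell type markers and the 5 nearest profiles. Alternatives varied the background, scaling, probes, filter, floor, variance model, block and arrays used.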

Additional observations from a re-analysis of the deposited data

Results flagged for a closer look

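The log2 levels of 29 tested miRNAs named here were searched in each group of 4 arrays for an array far from the other 3. Of 58 groups, 6 had one, where chance at 1 in 20 gives 2.9 for independent groups; these groups share the same 8 arrays, and 5 of the miRNAs were chosen for following the cluster over those arrays, so the counts are not a free comparison. In the cluster this was miR-19a-3p, at 3.54 on sham replicate 1 and 4.03 to 4.13 on the other sham arrays. miR-101b-3p, one of the nearest profiles, gave 6.03 for sham replicate 1, where its other sham values ran from 6.23 to 6.26. miR-365-3p, another of them, stood at 6.94 on sham replicate 4 and at 6.67 to 6.70 on the others. Among markers, miR-9a-5p stood at 3.28 on sham replicate 4, against 2.94 to 2.96. On nephrectomized replicate 1, miR-10a-5p stood at 10.94, against 11.10 to 11.12, and miR-150-5p at 5.66, against 5.85 to 5.87.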

How the results depend on the processing

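All alternatives below were planned. The count of called miRNAs, 0 in limma, was 156 with normexp, 19 with the 75th percentile over all miRNAs, 160 without scaling, 1 each with quantile normalization, labelling spike-ins, no filter and detection on all 8 arrays, 7 each with total gene signal and with limma's trend and robust fit, 5 each with the longest probe and the deposited table, and 0 to 5 over the fits leaving out single arrays (1 without nephrectomized replicate 1, 5 without nephrectomized replicate 3). miR-17-5p turned to -0.10 with the percentile over all miRNAs, -0.027 with the median, -0.28 without scaling (adjusted p = 0.0282, range 0.0282 to 1), -0.022 with quantile normalization and -0.041 with the deposited table, with a range of -0.028 to +0.045 over left-out arrays. For miR-92a-3p the percentile over all miRNAs gave -0.10, the median -0.025, no scaling -0.28 (adjusted p = 0.0343) and the deposited table -0.038, and ran from -0.035 to +0.087. miR-20a-5p stood at -0.29 without scaling (adjusted p = 0.0299), turned to +0.015 with normexp, +0.074 with labelling spike-ins and +0.0063 with the longest probe, and ran from -0.036 to +0.036. miR-19b-3p stayed below 0 under all 23 alternatives and passed without scaling (-0.40, adjusted p = 0.0277); left-out arrays gave -0.22 to -0.065. miR-19a-3p was below 0 in 22 of 23, normexp (+0.14) being the exception, and ran from -0.25 to -0.056. For both miR-19 miRNAs the filters, the floor, the variance model and the block left the difference unchanged by construction. Those alternatives are counted among the 23 but do not test its sign. The untested miR-18a-5p moved to -0.082 without scaling, -0.25 with total gene signal and -1.14 with the deposited table, and miR-20a-3p, near background at +0.15, to -0.82 with that table, where undetected arrays are set to 0.1. Left-out arrays gave +0.11 to +0.28 and -0.093 to +0.35. In the deposited table an undetected array enters at 0.1 before the log, so the -1.14 and -0.82 depend on the detection calls. Those were 1 of 4 nephrectomized and 2 of 4 sham arrays for miR-18a-5p, and 0 of 4 and 1 of 4 for miR-20a-3p. The cause of the other moves was not tested. Adding the replicate block left 0 miRNAs past the threshold and changed no call. The labels tie the numbers to nothing shared: deviations from the group means correlated, for numbers 1 to 4, at 0.34, 0.087, 0.33 and -0.15, and not every array was closest to its own number. Ratios between members gave 0 pairs without overlap under all 3 alternatives. A block for slide needs more than the 1 slide used. Signal over background limits miR-18a-5p and miR-20a-3p.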
